A study of Phaseolus vulgaris with 4 samples.

Results

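In globular-stage embryos of common bean (Phaseolus vulgaris), 132 genes were at a moderate level in the suspensor and nearly absent from the embryo proper. They were chosen by level alone: at least 5 and under 50 RPKM in both suspensor libraries, and under 0.5 RPKM in both embryo proper libraries. RPKM scales the reads of a gene by its length and by the reads of the library, and a gene that a library does not list was set to 0. The 132 genes are 0.630% of the 20961 genes listed in at least 1 library, and 2.29% of the 5758 genes that met the suspensor limits. The rule used every level in all 4 libraries, so the difference between the regions is how the genes were picked and is described here without being tested.

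The study compared the embryo proper with the suspensor, using 2 libraries labelled as biological replicates for each region. All 4 libraries came from plants of cultivar G19833 with no treatment or transgene named, and from seeds 1.6 to 2.0 mm long that were taken 6 days after pollination. Each region was cut from 6 micron paraffin sections by laser capture, and 5 ng of total RNA was amplified for each library. The labels do not give the number of embryos behind a library or tie it to plants, so the libraries may share plants, and the spread between replicates may be partly technical. The read totals behind the RPKM values, recovered from their step sizes, were 60900034 and 73408617 for embryo proper replicates 1 and 2 and 56813099 and 55135334 for suspensor replicates 1 and 2.

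The suspensor is the stalk that grows from the basal cell of the divided zygote and joins the embryo proper to the maternal tissue of the seed. In beans it is large, its basal cells carry polytene chromosomes, and it is known for passing nutrients and growth regulators such as gibberellins to the embryo proper before it degenerates. The embryo proper forms the plant itself. The files used here do not pair the gene IDs with names. Looked up in RefSeq's 34165 genes for assembly P. vulgaris v2.0, 0 of the 132 IDs were found. The same was true of all listed genes, with 0 found, so the missing match is not particular to the 132. The genes are therefore described by ID, level, length and place in the ID order, with no function given, and the region labels were not checked against marker genes.

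Levels in the suspensor filled the chosen range unevenly, with most genes in its lower part. The medians of suspensor replicates 1 and 2 were 12.2 and 12.9 RPKM, and the interquartile range lay between 8.02 and 18.8 RPKM and between 7.84 and 19.7 RPKM. Both libraries reached 10 RPKM for 59 genes and 20 RPKM for 12, and both stayed under 10 RPKM for 26. In the embryo proper the medians were 0.12 RPKM in replicate 1 and 0.0919 RPKM in replicate 2, far below the limit of 0.5 RPKM. The higher of the embryo proper levels was under 0.25 RPKM for 92 genes. As whole libraries hold mixed cells, fewer cells with a transcript and less transcript per cell cannot be told apart.

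**Figure D1:**
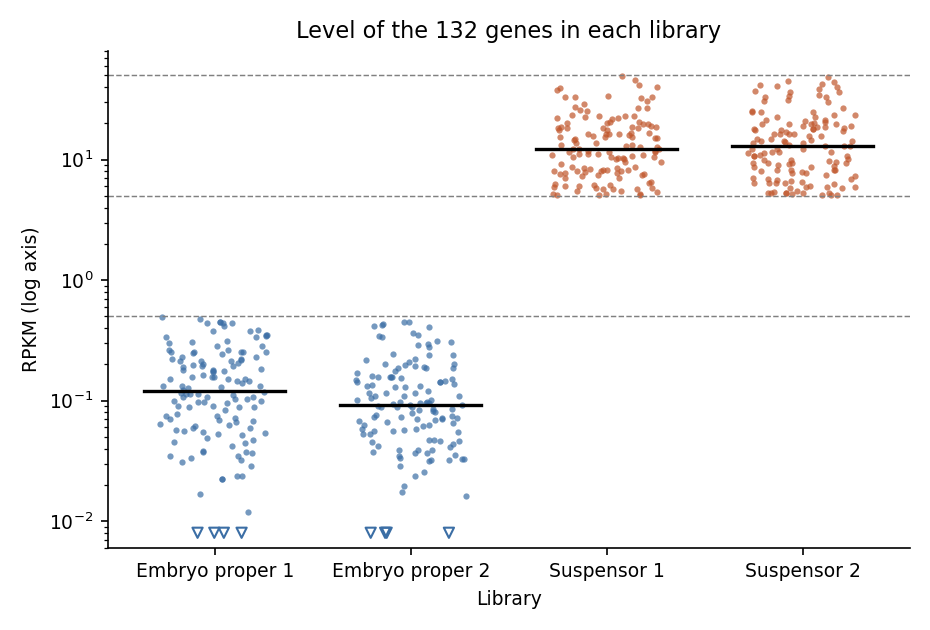
RPKM (log axis) of the 132 genes in each of the 4 libraries; each point is a gene, bars are medians, open triangles at the bottom mark genes with 0 reads, and dashed lines mark the limits of 0.5, 5 and 50 RPKM. The medians are 0.12 and 0.0919 RPKM in the embryo proper libraries and 12.2 and 12.9 RPKM in the suspensor libraries.

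The genes took the same small share of the transcripts in both suspensor libraries. Their summed RPKM was 0.299% of the total in suspensor replicate 1 and 0.301% in replicate 2, or 0.30% ± 0.00195 (mean ± SD, n = 2). In the embryo proper libraries it was 0.00291% and 0.00248%. The agreement of the sums did not extend to single genes, as the replicate levels below show.

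Genes at a moderate level in the suspensor were rarely this low in the embryo proper. Among the 5758 genes at 5 to under 50 RPKM in both suspensor libraries, the higher embryo proper level was under 0.25 RPKM for 92 genes, from 0.25 to under 0.5 for 40, from 0.5 to under 1 for 58 and from 1 to under 2 for 111. In wider bins above these, 443 genes lay between 2 and 5 RPKM and 3360 between 10 and 50 RPKM. As the bins widen with the level, their counts do not give the density of genes. No gap separated the 132 genes from those above the limit.

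**Figure D2:**
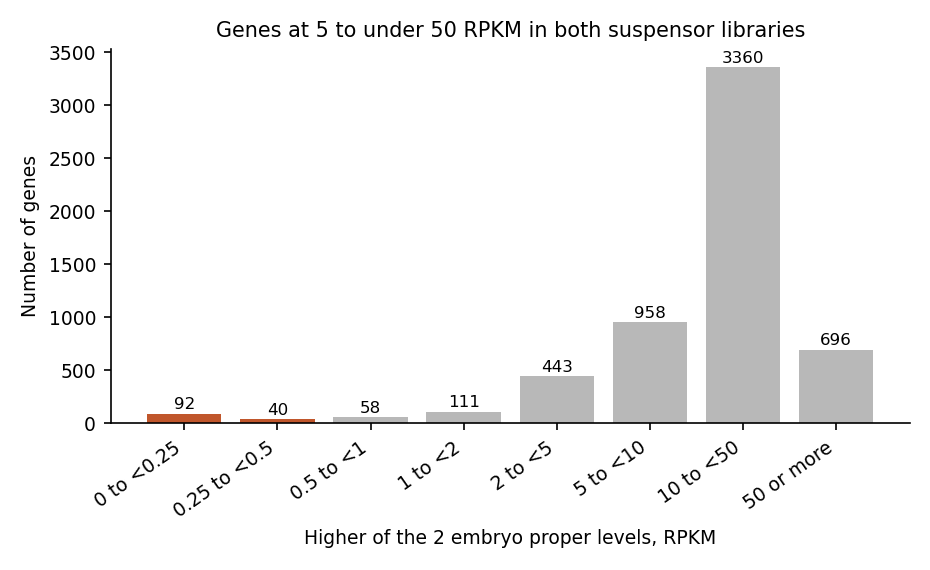
Number of genes (vertical axis) by the higher of their 2 embryo proper levels in RPKM (horizontal axis), for the 5758 genes at 5 to under 50 RPKM in both suspensor libraries. The first 2 bars, with 92 and 40 genes, are the 132 genes, and the later bars, over wider bins, rise from 58 genes to 3360 between 10 and 50 RPKM.

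At each limit, the levels nearest inside and nearest outside lay close together. Nearest inside the embryo proper limit, Phvul.008G292700 had 0.496 RPKM in embryo proper replicate 1, 0.0353 RPKM in replicate 2, and 6.52 and 6.94 RPKM in the suspensor. Next were Phvul.008G138400, with 0.475 and 0.296 RPKM in the embryo proper and 5.16 and 9.28 RPKM in the suspensor, and Phvul.009G243400, whose higher embryo proper level was 0.448 RPKM. The 3 nearest genes left out on this side had higher embryo proper levels of 0.513, 0.515 and 0.523 RPKM. In the suspensor they had 11.9 and 11.5 RPKM, 12.6 and 41.5 RPKM, and 5.18 and 7.18 RPKM, so 2 of them were above the genes inside. At the lower suspensor limit, the lower suspensor level was 5.05 RPKM in Phvul.008G279200, 5.08 RPKM in Phvul.005G123600 and 5.09 RPKM in Phvul.003G237200, against 4.91, 4.90 and 4.88 RPKM in the nearest genes left out. At the upper limit, the higher suspensor level was 49.5 RPKM in Phvul.002G311400, 48.1 RPKM in Phvul.009G149200 and 45.8 RPKM in Phvul.008G165000, against 53.2, 57.2 and 57.8 RPKM outside. Without an upper limit, 25 more genes would have joined, up to a level of 214 RPKM.

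Among the 10 genes with the highest suspensor means, some were even between the suspensor replicates and others were not. Phvul.008G189300, on chromosome 8 by its ID, had the highest mean, with 40.1 and 41.7 RPKM in suspensor replicates 1 and 2, and 0.229 and 0.352 RPKM in embryo proper replicates 1 and 2. These levels rest on 3265, 3293, 20 and 37 reads, and the suspensor mean was 141-fold the embryo proper mean. Phvul.008G165000, on the same chromosome, had 45.8 and 31.2 RPKM in the suspensor and 0.193 and 0.144 RPKM in the embryo proper. In both genes each suspensor library lay far above each embryo proper library.

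Of the other highest genes, Phvul.002G102500 had 33.9 and 38.4 RPKM in the suspensor and 0.177 and 0.134 RPKM in the embryo proper. Phvul.001G081300 had 33.0 and 36.2 RPKM in the suspensor and 0.254 and 0.0972 RPKM in the embryo proper. Phvul.002G221900 had 33.1 and 24.6 RPKM in the suspensor and 0.205 and 0.0946 RPKM in the embryo proper. These 3 were close between the suspensor replicates and had ratios of means from 193 to 232. Phvul.002G189900 had 23.1 and 37.2 RPKM in the suspensor, and 0.151 and 0.187 RPKM in the embryo proper. Phvul.010G061000 had 30.6 and 43.7 RPKM in the suspensor, but its embryo proper libraries differed, with 0 reads in replicate 1 and 7 reads, or 0.448 RPKM, in replicate 2. At its recovered length of 213 bp the 3 reads that a count of 0 allows would be 0.231 RPKM in replicate 1, so this gene is measured more coarsely than the others.

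The remaining 3 of the 10 highest were uneven between the suspensor replicates. Phvul.002G311400 had 49.5 RPKM in replicate 1 and 14.7 RPKM in replicate 2, with 0.122 and 0.101 RPKM in the embryo proper. Phvul.009G200800 had 42.0 and 18.9 RPKM in the suspensor, with 0.151 and 0.0628 RPKM in the embryo proper. Phvul.001G059300 went the other way, with 18.4 and 40.7 RPKM in the suspensor, and was the highest of the 10 in embryo proper replicate 1 at 0.441 RPKM, with 0.217 RPKM in replicate 2.

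The 5 genes with the lowest suspensor means lay close to the lower limit, and 4 of them were uneven between the embryo proper replicates. Phvul.005G123600 had 5.53 and 5.08 RPKM in the suspensor, and 0.0307 RPKM (3 reads) and 0.407 RPKM (48 reads) in embryo proper replicates 1 and 2. Phvul.002G306700 had 5.66 and 5.46 RPKM in the suspensor, and 10 reads against 1 in the embryo proper. Phvul.002G098700 had 6.12 and 5.35 RPKM in the suspensor, and 20 reads against 1. In the first gene the reads came from embryo proper replicate 2, in the other pair from replicate 1. Phvul.009G243400 had 5.87 and 5.95 RPKM in the suspensor and 76 and 36 reads in the embryo proper, a ratio of means of only 18.9. Phvul.003G098100 was the exception, with 5.19 and 6.74 RPKM in the suspensor, 5 and 7 reads in the embryo proper and a ratio of means of 191.

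The suspensor replicates ranked the genes only loosely alike, within the range that the limits allow. Replicate 1 was the higher in 66 genes and replicate 2 in the other 66, while replicate 1 was the higher in 61.9% of the 5758 moderate suspensor genes. Between the replicates, 67 of the 132 genes (50.8%) differed by no more than 1.5-fold, close to the 50.2% of the moderate genes. The median absolute log2 ratio between the replicates was also close, at 0.577 in the 132 genes and 0.581 in the moderate genes. A difference of at least 2-fold toward replicate 1 was seen in 24 genes (18.2%) and toward replicate 2 in 23 genes (17.4%). Among all 5758 moderate suspensor genes these shares were 17.6% and 7.94%, so the balance of the 132 genes leaned more toward replicate 2 than that of the moderate genes at large; this difference was not tested. Pearson's r of log2 RPKM between the suspensor replicates was 0.33 over the 132 genes and 0.50 over the 5758 genes, as a description across genes of the same libraries cut off at the same limits.

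**Figure D3:**
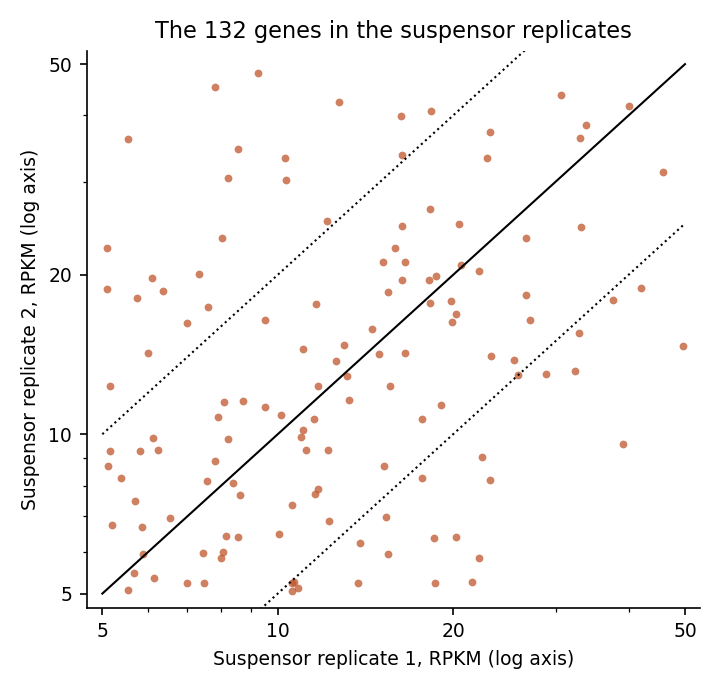
RPKM of the 132 genes in suspensor replicate 1 (horizontal, log axis) against replicate 2 (vertical, log axis); each point is a gene, the solid line marks equal levels and the dotted lines 2-fold differences. Outside the dotted lines lie 24 genes toward replicate 1 and 23 toward replicate 2.

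The largest differences between the suspensor replicates were toward replicate 2. Phvul.003G147400 had 5.54 RPKM in replicate 1 and 36.2 RPKM in replicate 2, a 6.53-fold difference, Phvul.011G183600 had 7.79 and 45.2 RPKM, and Phvul.009G149200 had 9.25 and 48.1 RPKM. Their embryo proper levels were 0.377, 0.261 and 0.374 RPKM in replicate 1 and 0.156, 0.158 and 0.186 RPKM in replicate 2. Toward replicate 1, Phvul.003G005700 had 21.6 and 5.26 RPKM, a 4.10-fold difference, Phvul.011G178700 had 39.1 and 9.56 RPKM, and Phvul.004G156000 had 22.1 and 5.83 RPKM. In these 3 the embryo proper held 19, 2 and 2 reads in replicate 1 and 2, 0 and 4 reads in replicate 2. Except for the 19 reads of Phvul.003G005700, the genes high in suspensor replicate 2 had more reads in each embryo proper library, with 24, 11 and 20 in replicate 1 and 12, 8 and 12 in replicate 2.

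The embryo proper levels rested on few reads. The median was 9 reads in embryo proper replicate 1 and 8 in replicate 2, with highest values of 76 and 81, against 866.5 and 898.5 in the suspensor libraries. At least 10 reads in both embryo proper libraries were found for 44 genes, and at most 3 in both for 15. A total of 7 genes had 0 reads in at least 1 embryo proper library, 4 of them in each, and Phvul.008G203000 was the only one with 0 reads in both. It had 7.45 and 5.98 RPKM in the suspensor, from 113 and 88 reads at a recovered length of 267 bp. Against 3 reads in each embryo proper library, its suspensor mean was at least 39.8-fold higher, a bound that covers counting error only. Its 0 is therefore a looser statement than the low counts of longer genes: the limit that a count of 0 allows is 0.184 RPKM in replicate 1 and 0.153 RPKM in replicate 2, above the median levels of the 132 genes.

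The embryo proper replicates leaned toward replicate 1, which was the higher in 82 genes, against 49 for replicate 2 and 1 gene at 0 in both. The same count over all genes was not made. Library-wide scale factors of replicates 1 and 2 were 1.08 and 0.922 by a trimmed mean of log ratios, and 0.973 and 0.977 by the upper quartile. Pearson's r of log2 RPKM between the embryo proper replicates was 0.36 over the 125 genes above 0 in both. This was no closer than that of either with suspensor replicate 2, which is given below. Both embryo proper levels were under 0.1 RPKM in 42 genes. At that level a single read counts for much: 1 to 3 reads stood behind the value of 23 genes in each embryo proper library.

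Where the ratio of mean RPKM could be formed, in 131 genes, its median was 133, and the interquartile range ran from 73.2 to 196. It was 100 or more in 83 genes and under 20 in 2, Phvul.008G138400 and Phvul.009G243400. The highest ratio, 1121 in Phvul.001G048300 (named after its values were seen), came from 0 reads and 1 read in the embryo proper against 27.1 and 16.4 RPKM in the suspensor, so counting error alone leaves it wide.

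The embryo proper levels followed suspensor replicate 2 more closely than suspensor replicate 1. Over the genes above 0, Pearson's r of log2 RPKM with suspensor replicate 2 was 0.39 for embryo proper replicate 1 and 0.44 for replicate 2 (128 genes each), against -0.04 and 0.08 with suspensor replicate 1. Spearman's rho over all 132 genes was 0.33 and 0.46 with suspensor replicate 2, against -0.09 and 0.06. These values describe genes measured in the same libraries, and the limits cut off both axes. Most genes lay in a band under 1% of their level in suspensor replicate 2, and 72 were under 1% in both embryo proper libraries. The median share was 0.722% in embryo proper replicate 1 and 0.586% in replicate 2. As shares of suspensor replicate 1 the medians were 0.779% and 0.702%, also under 1%, but the shares were spread more widely. Their interquartile ranges were 0.411% to 2.06% and 0.363% to 1.55%, against 0.552% to 1.26% and 0.435% to 0.961% for suspensor replicate 2. In the 32 genes with at least 20 RPKM in suspensor replicate 2, more reads stand behind the share. Its interquartile range there was 0.571% to 0.919% in embryo proper replicate 1 and 0.387% to 0.661% in replicate 2. The limit of 0.5 RPKM also caps this share, and the cap is lower at higher suspensor levels. For the 30 genes at 20 RPKM or more in suspensor replicate 1, the ranges against that library were 0.261% to 0.654% and 0.190% to 0.768%.

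**Figure D4:**
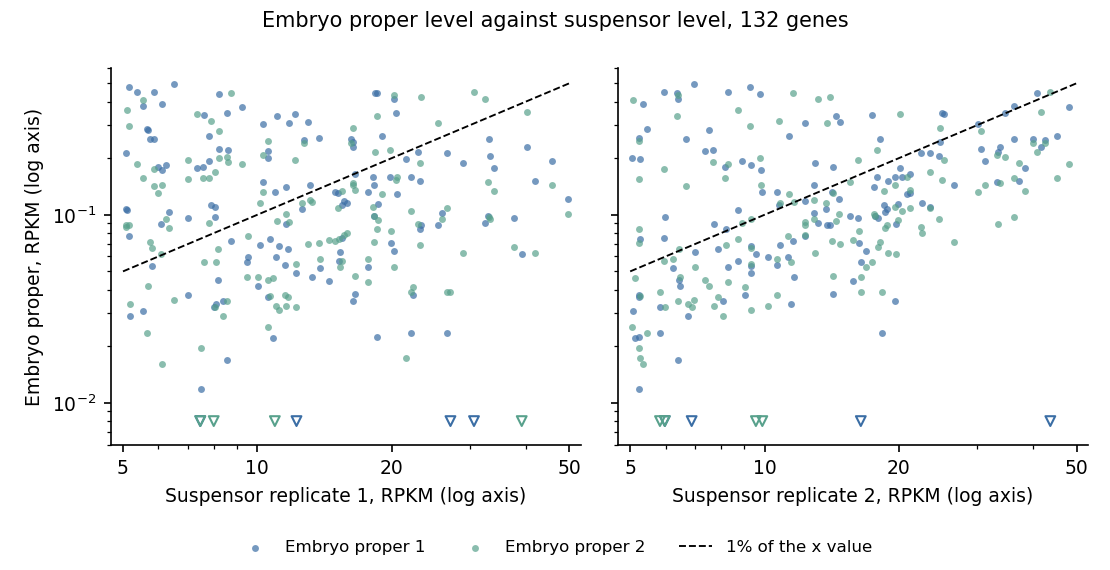
RPKM in the embryo proper (vertical, log axis; blue replicate 1, green replicate 2) against RPKM in suspensor replicate 1 (left) and suspensor replicate 2 (right; log axes) for the 132 genes; open triangles mark 0 reads and the dashed line 1% of the suspensor level. On the right the points gather in a rising band under the line, with medians of 0.722% and 0.586%. On the left the medians are also under the line, at 0.779% and 0.702%, but the points are spread more widely.

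The same values can be set out for the genes that differed between the suspensor replicates, which adds no separate measurement. The split used the same suspensor levels that the shares are formed from. In the 23 genes at least 2-fold higher in suspensor replicate 2, the median levels were 7.79 and 25.3 RPKM in the suspensor, and 0.230 and 0.158 RPKM in embryo proper replicates 1 and 2. In the 24 genes at least 2-fold higher in suspensor replicate 1, they were 20.9 and 6.69 RPKM in the suspensor, and 0.0870 and 0.0628 RPKM in the embryo proper. The second set was lower than the first in both embryo proper libraries, and its median in its own higher suspensor library, 20.9 RPKM, was also below the 25.3 RPKM of the first. As shares of suspensor replicate 2, the embryo proper medians were 0.733% and 0.532% in the first set and 0.816% and 0.745% in the second. As shares of suspensor replicate 1 they were 2.41% and 1.74% in the first set and 0.361% and 0.344% in the second. Whether these reads come from transcripts made in the embryo proper was not tested.

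In the opposite set of genes, the suspensor replicates differed from each other. Of 241 genes at 5 to under 50 RPKM in both embryo proper libraries and under 0.5 RPKM in both suspensor libraries, suspensor replicate 1 lacked any read for 127, and replicate 2 lacked any for 0. Over all genes, suspensor replicate 1 did not list fewer, with 18515 genes against 18314 in replicate 2. In the 241 genes, the level in suspensor replicate 2 was 0.672% of the summed embryo proper levels at the median, with an interquartile range between 0.576% and 0.824%. A share of a sum is not comparable with the shares of a single library above. As shares of the summed suspensor levels, the 132 genes had medians of 0.363% in embryo proper replicate 1 and 0.299% in replicate 2. Among the 132 suspensor genes, both embryo proper libraries had reads for 125.

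Above the band, at 1% or more of the level in suspensor replicate 2, were 28 genes in embryo proper replicate 1 only, 16 in replicate 2 only and 16 in both. At 2% or more were 14 genes in embryo proper replicate 1 only, 9 in replicate 2 only and 8 in both, while 101 were below 2% in both. Examples at 2% in replicate 1 only are Phvul.008G292700, with 35 reads in embryo proper replicate 1 and 3 in replicate 2, and Phvul.008G279200, with 13 and 2. In replicate 2 only, Phvul.005G123600 is an example, with 3 and 48 reads. In both, examples are Phvul.008G138400, with 24 and 18 reads, and Phvul.009G243400, with 76 and 36. None of the 23 genes at least 2-fold higher in suspensor replicate 2 was at 2% in either embryo proper library. That count is bounded by the rule, because 2% of a suspensor level of 25 RPKM reaches the limit of 0.5 RPKM.

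Because the rule used all 4 libraries, it was also applied to 1 library of each region and read in the others. On suspensor replicate 1 and embryo proper replicate 1 alone, 410 genes met the limits, and 132 of them (32.2%) met the limits in the replicate 2 libraries as well. In those unused libraries the median was 5.05 RPKM in the suspensor and 0.128 RPKM in the embryo proper, the suspensor was the higher in 336 of the 410 genes, and it was at least 10-fold higher in 273 (66.6%). Among the rest, 145 missed only those of the suspensor, 65 only that of the embryo proper, and 68 both. The suspensor library was under 0.5 RPKM in 77 of the 410 genes. Chosen on the replicate 2 libraries, 679 genes met the limits and the same 132 (19.4%) met them in the replicate 1 libraries, where the suspensor was the higher in 530 and at least 10-fold higher in 288 (42.4%). Most genes that met the limits in 1 library of each region therefore missed them in the other pair. The suspensor was still the higher in most of the chosen genes. The same count over all genes was not made, so how far these shares exceed that background is not known.

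The 132 genes all passed the filter of the fit across genes, and had to, since each has at least 5 RPKM in both suspensor libraries. In limma on log2(RPKM + 1), 122 of them were called higher in the suspensor at a Benjamini-Hochberg adjusted p under 0.05, against 4.49% of all 15169 tested genes; since the rule used this contrast, nothing is read from the share. On that scale, where the added 1 shrinks the fold changes of low genes, their median log2 fold change was 3.58. The highest and lowest were 5.06 with a standard error of 0.77 in Phvul.008G165000 (limma, adjusted p = 0.0115) and 2.39 with a standard error of 0.65 in Phvul.005G123600 (limma, adjusted p = 0.0561). The lowest adjusted p were 0.0107 in Phvul.008G189300 and 0.0115 in Phvul.002G102500 and Phvul.008G165000. The highest were 0.0619 in Phvul.008G138400, 0.0589 in Phvul.009G243400 and 0.0561 in Phvul.005G123600. The rule chose the genes on this contrast and capped their embryo proper levels, so these adjusted p are descriptions and test nothing. On this scale the median SD between the embryo proper replicates was 0.0456 in the 132 genes, against 0.507 over all tested genes.

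The 10 genes not called had a lower suspensor level of at most 6.52 RPKM and a higher embryo proper level of at least 0.362 RPKM. The rule set limits on these same levels, so such profiles of called and uncalled genes are descriptions only. The number of calls depended on the fit. In limma-voom on the recovered reads, 20 of the 132 were called, against 2.62% of all tested genes. In these 20 the lower suspensor level was 9.34 to 40.1 RPKM, and they differed by at most 2.22-fold between the suspensor replicates. A pseudocount of 5 gave 66 calls among the 132 genes (3.26% of all tested genes) and a filter at a mean of 5 RPKM 68 of the 93 genes left (6.11%). Without embryo proper replicate 1 or 2, limma called 10 and 12 of the genes (2.33% and 2.58% of all tested genes). Without suspensor replicate 1 or 2 it called 0 of the 132 genes and 0 of all 15169 tested genes. The median log2 fold change of the 132 genes was then 3.61 and 3.58. With 1 suspensor library left, the spread within a region comes from the embryo proper pair alone. The rule held both levels of that pair under 0.5 RPKM, so nothing is read from these fits.

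The 132 genes were shorter than the genes around them in level, by the lengths recovered from the RPKM values, which the rule did not use. Their median length was 1168.5 bp, with an interquartile range between 767 and 1680 bp, against 1720 bp for all moderate suspensor genes and 1614 bp for all tested genes. Under 1000 bp were 53 of the 132 (40.2%), against 16.6% of the moderate suspensor genes and 20.4% of the tested genes. The 241 genes of the opposite set had a median of 1677 bp, close to that of all tested genes. A recovered length is too short when the read numbers of a gene have a common divisor, and the difference in length was not tested. The 53 shorter genes had embryo proper medians of 5 and 4 reads, against 12 and 11 in the 79 longer ones, and their suspensor means had a median of 15.4 RPKM against 12 RPKM. The depth behind the limit also depends on length: 0.5 RPKM in embryo proper replicate 1 stands for 3.47 reads in the shortest gene and for 137 in the longest.

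**Figure D5:**
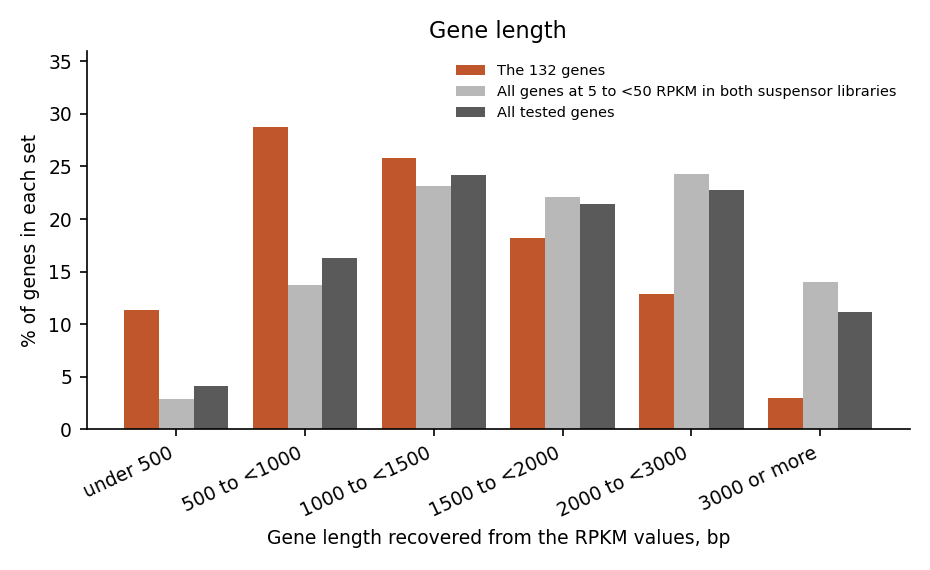
Share of genes in percent (vertical axis) by gene length in bp recovered from the RPKM values (horizontal axis), for the 132 genes, all 5758 genes at 5 to under 50 RPKM in both suspensor libraries, and all 15169 tested genes. Genes under 1000 bp are 40.2% of the 132, 16.6% of the 5758 and 20.4% of the tested genes.

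By their IDs the genes lay on all 11 chromosomes. Chromosome 8 held 23 and chromosome 1 held 20, or 3.88% and 3.29% of their moderate suspensor genes, and chromosome 6 held 5, or 1.08%, against 2.29% in all; these shares were not tested. A single pair were neighbours in the order of tested gene IDs, Phvul.003G147300 and Phvul.003G147400 on chromosome 3. Both were higher in suspensor replicate 2, with 6.35 and 18.7 RPKM in the former and 5.54 and 36.2 RPKM in the latter. Their embryo proper levels were 0.103 and 0.0855 RPKM and 0.377 and 0.156 RPKM, and their recovered lengths, 1593 and 1046 bp, differed. Within 3 places there were 5 pairs in the order of tested genes and 3 pairs in the order of all listed genes. Whether reads shared between near-identical copies add to any of these levels was not tested, as the handling of such reads is not given in the sources used here.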

How the data were processed

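RNA of laser-captured embryo proper and suspensor was sequenced in 2 libraries per region. Per the submitters' processing notes, the tools named were Bowtie 0.12.7 and bedtools. The genome build, the annotation, the use of strand and the treatment of reads with several matches were not given in the sources used here. The authors deposited 1 table of RPKM values per library. The tables were joined by gene ID, and an unlisted gene was set to 0. The 132 genes and all lists were chosen with earlier results of these data known.

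Library totals, gene lengths and whole reads were recovered from the step sizes of the RPKM values. On simulated data of 6000 genes the 4 totals came out right, as did length and reads for 96.6% of the 4467 genes read in all 4 libraries. Where the read numbers of a gene have a common divisor, its recovered length and reads are too small. Limits for a count of 0 use 3 reads and cover counting error only, since reads carry no molecular identifiers.

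The difference between regions was fitted with limma 3.58.1 (R 4.3.3; with a variance trend) on log2(RPKM + 1), over the 15169 genes that reached 1 RPKM in at least 2 of the 4 libraries, with p adjusted by the Benjamini-Hochberg method over all of them and a threshold of 0.05. Tested on simulated data with 200 of 14807 genes changed, it called 0, and at a 4 log2 change 90.8% had an unadjusted p under 0.05 in the right direction; with 1500 of 14789 genes changed by 4, it called 77.7% of them right. The p-values rest only on the spread among these 4 libraries. Pandas 2.3.3, SciPy 1.17.1 and Matplotlib 3.10.9 (Python 3.11.15) were used for the rest.

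Genes were named by rule: the 10 highest and 5 lowest suspensor means, 0 reads in both embryo proper libraries, the 3 largest replicate ratios each way, the 3 nearest each limit, neighbours in ID order, and the 3 lowest and highest adjusted p. Product and marker lists could not be used because no ID matched a name. Alternatives were other pseudocounts, filters, limits and scalings, a replicate block, limma-voom on recovered reads, and leaving out each library.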

Additional observations from a re-analysis of the deposited data

How the results depend on the processing

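With a suspensor limit of 2.5 or 10 RPKM in place of 5, the number of genes was 259 or 59, and leaving out 1 library gave 197 to 335 genes; the other limits and scalings stayed within 1.5-fold of 132. Of the 132 genes, limma called 122 in the main fit. That count was 66 with a pseudocount of 5, 68 with a mean of at least 5 RPKM (93 of the genes tested) and 20 with limma-voom. It was 0 without a filter on low values, where limma called 0 of all genes at 4162 with an unadjusted p under 0.05. Leaving out 1 library gave 0 to 12 calls among the 132 genes, with the lone library assumed to vary like the other region's pair. Over all genes, the 681 calls became 0 without a filter, 397 with limma-voom and 0 to 391 with 1 library left out; at the 0 counts without a suspensor library, limma found 2947 and 3189 at an unadjusted p under 0.05. As for pairing, same-numbered libraries hardly deviated together over all genes (correlation of deviations 0.07), no label ties them, and a replicate block gave 128 calls among the 132 genes and 867 over all genes. The median log2 fold change of 3.58 was 5.98, 4.41 and 1.77 with pseudocounts of 0.1, 0.5 and 5, 6.97 with limma-voom, and 3.51 to 3.61 with 1 library left out. The share of genes meeting the limits again, 32.2%, was 19.4% when the replicate 2 libraries chose and 18% when suspensor replicate 1 and embryo proper replicate 2 chose; it was 28.3% for suspensor replicate 2 and embryo proper replicate 1, an alternative chosen after seeing the data. The summed share was 0.299% to 0.301% with 1 suspensor library left out. Of 369 alternative values for the 27 named genes, 126 lost the threshold and 8 gained it; their direction was fixed by the choice of genes. Depth limits the embryo proper values, with medians of 9 and 8 reads.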
